A study of Homo sapiens with 3 samples.

Results

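Transcript levels of the genes that build the nuclear pore and carry proteins through it were compared in LNCaP, a human prostate cancer cell line, after transfection with either of 2 HOXD-AS1 siRNAs or with a control siRNA. HOXD-AS1 is a long non-coding RNA of the HOXD cluster. The genes were chosen by symbol. They were every annotated nucleoporin gene named NUP with a number, the importin alpha genes (KPNA), the importin and transportin genes (IPO, TNPO, KPNB1), the further pore genes SEH1L, SEC13, RAE1, AAAS, NDC1, POM121 and TPR, and the Ran cycle genes RAN, RANBP1, RANGAP1 and RCC1. The rule took 49 of the 18131 genes on the array, with 149 of its 49388 probe sets, and used no measured value. The median of all values, an intensity of 26.0, served as a floor, and 48 of the 49 genes were above it on 1 or more of the 3 arrays and are called measured. IPO11 was the exception, with intensities of 12.9 with siRNA 1 and 14.9 with siRNA 2, against 16.1 with the control siRNA. Importin alpha genes whose probe sets carry several gene symbols were not analysed here.

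Per the labels, cells grew in serum-containing medium without phenol red and were transfected with 75 nM siRNA by lipid carrier. RNA was taken 48 h later. The study set each siRNA against the control to look for genes that HOXD-AS1 may regulate. HOXD-AS1 siRNA 1, HOXD-AS1 siRNA 2 and control siRNA each had 1 Affymetrix array, so no value below has a replicate, an error or a test. The 2 siRNA differences share the control array and are not independent of each other. The source labels name LNCaP-Bic for siRNA 1, LNCaP-AI for siRNA 2 and LNCaP for the control, while the cell line label gives LNCaP for all 3. A difference between cells of these names and a difference between siRNAs cannot be told apart. The titles and the siRNA label name HOXD-AS1, but another label places the target positions, 588 for siRNA 1 and 1290 for siRNA 2, on the coding sequence of WDR5, a different gene. Which transcript the siRNAs target is therefore unclear from the labels, and the groups are called here by their titles. An inhibition rate of 0.23 for siRNA 1 and 0.25 for siRNA 2, against 1 for the control siRNA, is also given in the labels, without the transcript or method it refers to. The siRNAs are shown because they are what sets the groups apart, with the final 2 bases of each in capitals.
HOXD-AS1 siRNA 1: gaaagaaggaccaaaguaaUU
HOXD-AS1 siRNA 2: gcccuuucugaccugcuuaUU
control siRNA: uucuccgaacgugucacguTT

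The array values could not check a knockdown of HOXD-AS1, because 0 probe sets used here were annotated to HOXD-AS1 or its current symbol HAGLR. WDR5 was not among the genes read here. Median intensities of the arrays were 25.7 with siRNA 1 and 26.1 with siRNA 2, against 26.1 with the control siRNA. Of 10 listed luminal prostate markers 7 had a probe set used here, and all 7 were measured, among them the prostate kallikrein genes KLK3 and KLK2. Of 18 basal, stromal, leukocyte, neuroendocrine and androgen receptor-negative line markers with a probe set, 13 were below the floor on all arrays, among them the leukocyte gene PTPRC and the stromal gene DCN. The 5 above it were KRT14, VIM, COL1A1, LCP1 and SYP.

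The nuclear pore is a ring-shaped assembly of nucleoporins set into the nuclear envelope. Scaffold nucleoporins form outer and inner rings, membrane nucleoporins anchor them, and nucleoporins with phenylalanine-glycine repeats fill the channel. Import receptors bind cargo in the cytoplasm and let go of it in the nucleus when they meet the small GTPase Ran in its GTP-bound form. RCC1 on chromatin loads Ran with GTP, and RANGAP1 outside the nucleus triggers its hydrolysis. Several of these proteins also act in mitosis, when the pore is taken apart and Ran-GTP guides spindle assembly.

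Most of these transcripts were lower with each HOXD-AS1 siRNA than with the control siRNA, by small amounts. Of the 48 measured genes 37 were lower with siRNA 1, where 48% of all 11296 measured genes were lower, and 35 were lower with siRNA 2, where 46.9% of all genes were. The median log2 difference from the control was -0.32 with siRNA 1 and -0.13 with siRNA 2, against medians of 0.00 and 0.01 over all measured genes. Lower in both libraries were 31 of the 48 (64.6%, against 32% of all measured genes), while 7 were higher in both (14.6%, against 34.3%). The remaining 10 went opposite ways. At 1.5-fold, 4 were lower in both (8.33%, against 1.52% of all measured genes) and 0 were higher in both, where 1.83% of all genes were. Counted by probe set rather than by gene, 78 of the 126 measured probe sets were lower in both libraries (61.9%, against 33.7% of all 23896 measured probe sets with 1 symbol) and 11 were higher in both (8.73%, against 31.8%).

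Few genes passed a 1.5-fold difference. With siRNA 1 the count was 8 genes lower (16.7% of the 48, against 6.15% of all measured genes) and 1 higher (2.08% against 6.93%). With siRNA 2 it was 6 lower (12.5% against 4.67%) and 0 higher, where 4.75% of all genes were higher. At 2-fold, 1 gene was lower and 1 higher with siRNA 1 (1.76% and 1.36% of all genes), and none in either direction with siRNA 2 (0.602% lower and 0.797% higher of all genes). Within 1.5-fold of the control in both libraries were 37 of the 48 genes, and 81.1% of all measured genes lay in that range.

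**Figure D1:**
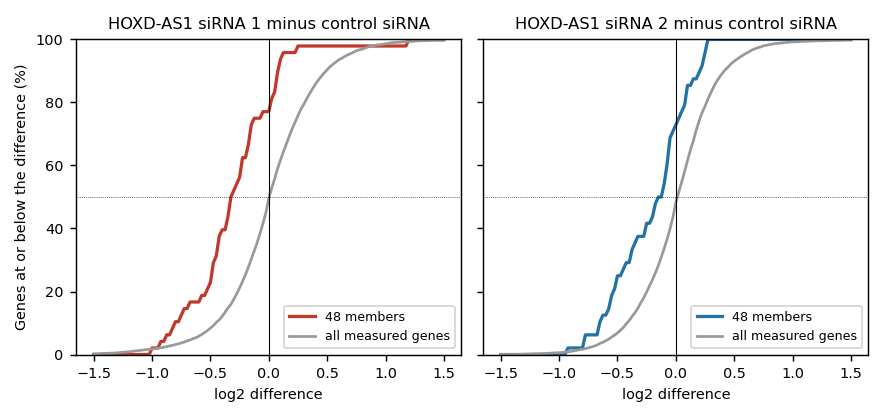
Cumulative share of genes (%) at or below each log2 difference from the control siRNA array, for HOXD-AS1 siRNA 1 (left) and siRNA 2 (right). The coloured line is the 48 measured pore and import genes and the grey line all 11296 measured genes. The coloured line crosses 50% at the medians of -0.32 and -0.13, left of the grey line, which crosses near 0.

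Genes of cell division were also lower. A list of 42 mitosis and DNA replication genes that holds none of the 49 was lower in both libraries for all 41 measured genes. Among all measured genes 32% were lower in both. The 41 had a median log2 difference of -1.21 with siRNA 1 and -0.51 with siRNA 2. The summed intensity of the 42 was 13458 with siRNA 1 and 21442 with siRNA 2, against 29231 with the control siRNA. Of the 48 pore and import genes, 30 were lower with siRNA 1 than with siRNA 2, 4 of them by 1.5-fold or more. Of the 41 division genes all 41 were, 29 of them by that much. Among all measured genes 53.1% were lower with siRNA 1 than with siRNA 2, and 4.87% by that much. The list was written with the low values of such genes in these arrays already known. Its part in the values of the pore and import genes was not tested, and fewer dividing cells and less RNA per dividing cell cannot be told apart in these bulk samples.

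The 4 genes at least 1.5-fold lower in both libraries came from different parts of the machinery. They were NUP35 of the inner ring, NDC1 of the pore membrane, the import receptor gene IPO4 and RCC1. NUP35, whose protein binds membrane and inner ring partners, read 166 with siRNA 1 and 164 with siRNA 2, against 317 with the control siRNA, which is 52.4% and 51.8% of the control level. Its second bright probe set gave log2 differences of -0.85 and -1.15. The 2 dim NUP35 probe sets stood at 29.7 and 26.4 in the control, just above the floor, and below it in both siRNA libraries, so their differences of -0.19 and -0.02 are lower bounds on the size. With all 4 averaged, NUP35 lay at -0.50 and -0.58, inside 1.5-fold.

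NDC1, a membrane-spanning nucleoporin needed to insert pores into the envelope, read 318 with siRNA 1 and 358 with siRNA 2, against 556 with the control siRNA. All 3 of its probe sets were lower, the siRNA 1 differences lying between -0.95 and -0.80 and the siRNA 2 differences between -0.63 and -0.53. IPO4, a receptor known for carrying histones, read 92.4 and 98.7, against 155 with the control siRNA (-0.75 and -0.65), and had 1 probe set. RCC1 read 265 and 282, against 486 with the control siRNA (-0.88 and -0.79), while a dimmer RCC1 probe set gave -0.55 and -0.60. In the brightest probe set of each of these 4 genes the 2 siRNA libraries lay within a log2 difference of 0.17 of each other. With siRNA 1 minus siRNA 2, the other NDC1 probe sets gave -0.32 and -0.35, and the second bright NUP35 probe set gave 0.30.

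Promoters are shown for the genes of that group with 1 start site in the RefSeq table (build GRCh38.p14), as 250 bases before to 50 after the start, because these genes were low together. RCC1 has more than 1 listed start and is not shown. Capitals mark every match, on either strand, to 5 motifs. The E2F motif was searched as TTTCCCGC, with TTTGGCGC as an allowed form and TTTCGCGC as a further one. The cell cycle gene homology region, CHR, was searched as TTTGAA and in its variant form as TTCGAA. The ETS motif was CCGGAAGT, the NRF1 motif was GCATGCGC, and the CCAAT box was searched by the letters of its name. Matches to different motifs overlapped in 0 places in these windows.
NUP35, chr2:183124193-183124492, plus strand: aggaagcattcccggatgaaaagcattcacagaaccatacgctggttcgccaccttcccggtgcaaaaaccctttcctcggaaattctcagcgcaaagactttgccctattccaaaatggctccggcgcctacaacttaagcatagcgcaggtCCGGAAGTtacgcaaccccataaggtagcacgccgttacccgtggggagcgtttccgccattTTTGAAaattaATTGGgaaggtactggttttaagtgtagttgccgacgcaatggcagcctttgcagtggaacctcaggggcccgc
NDC1, chr1:53838247-53838546, minus strand: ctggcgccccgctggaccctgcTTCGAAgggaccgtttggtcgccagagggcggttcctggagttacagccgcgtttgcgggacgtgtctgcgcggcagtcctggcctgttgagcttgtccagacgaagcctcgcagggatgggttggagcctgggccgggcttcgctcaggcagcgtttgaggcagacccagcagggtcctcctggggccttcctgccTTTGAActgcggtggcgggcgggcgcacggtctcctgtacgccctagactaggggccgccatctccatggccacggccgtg
IPO4, chr14:24188767-24189066, minus strand: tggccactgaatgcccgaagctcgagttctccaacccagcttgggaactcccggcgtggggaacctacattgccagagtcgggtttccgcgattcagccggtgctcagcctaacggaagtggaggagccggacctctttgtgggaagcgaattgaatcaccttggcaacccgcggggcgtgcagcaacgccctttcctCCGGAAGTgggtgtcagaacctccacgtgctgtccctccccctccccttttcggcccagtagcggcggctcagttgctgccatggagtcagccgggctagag

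NUP35 holds a CHR match 35 bases before its start, beside a CCAAT match 24 bases before it, and an ETS match at 97 bases. NDC1 holds CHR matches 31 and 228 bases before its start, and IPO4 an ETS match at 52 bases. A promoter was listed for 43 of the 49 genes, and 31 of these had 1 start. Of those 31 windows, 7 (22.6%) held a CHR match, against 10.8% of 6642 windows of measured genes with 1 start, and 5 (16.1%) held an ETS match, against 10.1%. CCAAT matches were in 11 (35.5% against 38.3%), and E2F and NRF1 matches in 2 each (6.45%, against 5.06% and 6.13%). CHR matches were in 17.2% and ETS matches in 4.51% of all 22114 windows with 1 start. Of the 31, 6 belonged to genes 1.5-fold or more lower with either siRNA, and 2 of these held a CHR match and 2 an ETS match. Of the 25 others 5 (20%) held a CHR match and 3 (12%) an ETS match. These shares describe letters in a window and carry no test.

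**Figure D2:**
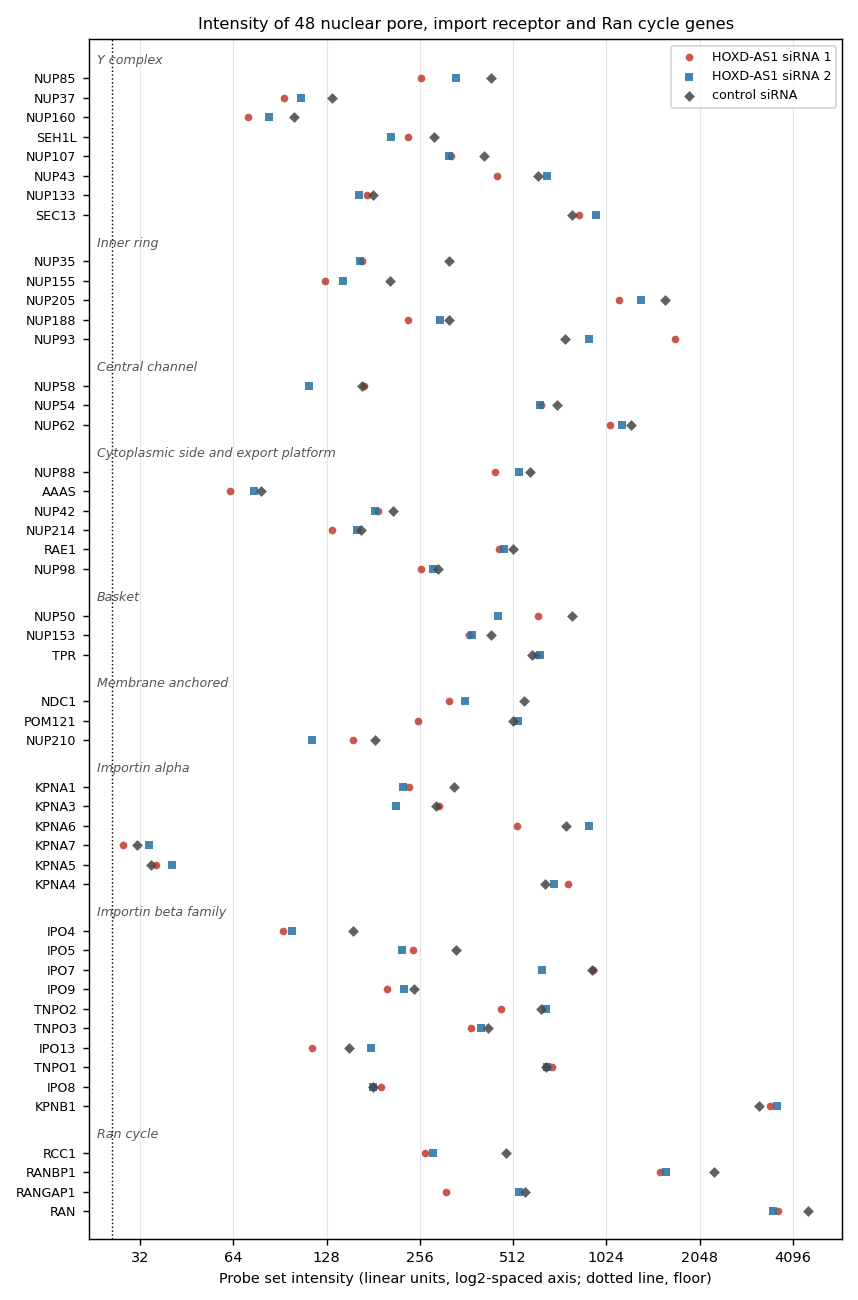
Probe set intensity (linear units on a log2-spaced axis) of the 48 measured genes on each array, by role in the pore or in transport. Circles are HOXD-AS1 siRNA 1, squares siRNA 2 and diamonds the control siRNA, each 1 array. Diamonds lie right of both other symbols in 31 genes, and the NUP93 circle stands far right of its square and diamond.

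The Y complex forms the outer rings of the pore. Of the 8 measured genes placed in it here, 6 were lower in both libraries, where 32% of all measured genes were. Their class median was -0.39 with siRNA 1 and -0.30 with siRNA 2. NUP85 was the lowest of them with siRNA 1, at 258 with siRNA 1 and 334 with siRNA 2, against 435 with the control siRNA (-0.75 and -0.38). Its other measured probe set differed by -1.03 and -0.53, so the siRNA 1 value passed 1.5-fold in each. NUP37 differed by -0.52 and -0.33, NUP160 by -0.49 and -0.27 and NUP107 by -0.35 and -0.37. The 2 other measured NUP160 probe sets ranged from -0.35 to -0.29 with siRNA 1 and from -0.92 to -0.28 with siRNA 2. SEH1L, a subunit that also serves the amino acid sensing complex GATOR2, differed by -0.27 and -0.46 in its brightest probe set and by -1.13 and -0.75 in its other one. NUP133 was close to the control, at -0.07 and -0.15. NUP43 went opposite ways, at -0.44 with siRNA 1 and 0.10 with siRNA 2. SEC13, which is shared with the COPII coat of secretory vesicles, was the highest of the class, with 833 and 950, against 790 with the control siRNA (0.08 and 0.27).

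Among the inner ring genes NUP35 was the lowest in both libraries. NUP93, a scaffold protein that ties the other inner ring subunits together, was the highest of all 48 genes with siRNA 1. NUP93 read 1700 with siRNA 1 and 899 with siRNA 2, against 752 with the control siRNA, log2 differences of 1.18 and 0.26. The siRNA 1 array was thus 2.26-fold above the control, higher than in 99.3% of all measured genes, while the siRNA 2 array was 1.20-fold above it. NUP93 had 1 probe set, so no other reading of this difference was at hand. Its partners went the other way: NUP155 differed by -0.69 and -0.50, NUP205 by -0.48 and -0.25, and NUP188, which occupies the same kind of position as NUP205, by -0.44 and -0.09. NUP155 read 127 and 145, against 205 with the control siRNA, and also had 1 probe set.

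The channel nucleoporins NUP62, NUP54 and NUP58 form a complex whose repeats make up the permeability barrier. NUP62 (1053 and 1151, against 1233 with the control siRNA) and NUP54 (628 and 624, against 708) lay within a log2 difference of 0.23 of the control in both libraries, by their brightest probe sets. The other measured probe sets of NUP62 ranged from -0.46 to -0.33 with siRNA 1 and from -0.52 to -0.22 with siRNA 2, and those of NUP54 from -0.27 to -0.25 and from -0.42 to -0.17. NUP58 was level with the control in siRNA 1 (169) and lower in siRNA 2 (113), against 166 with the control siRNA, log2 differences of 0.02 and -0.56. The other measured NUP58 probe set differed by 0.10 and -0.64.

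In the class of the cytoplasmic side and export platform all 6 measured genes were lower in both libraries, where 32% of all measured genes were. These 6 were read from their brightest probe sets, and each was lower by less than 1.5-fold. Of the 18 measured probe sets of this class, 11 were lower in both libraries and 1 was higher in both. The shares of all measured probe sets were 33.7% and 31.8%. NUP88, a partner of NUP214 in export, had 448 and 536, against 580 with the control siRNA (-0.37 and -0.12), but its 4 other probe sets ranged from -0.22 to 0.27 with siRNA 1 and from -0.23 to 0.11 with siRNA 2. NUP214 differed by -0.31 and -0.05, and AAAS, the gene of Allgrove syndrome, by -0.33 and -0.07. NUP42 differed by -0.17 and -0.20. RAE1 and NUP98, which bind each other in RNA export, stood at -0.16 and -0.10 for RAE1 and -0.19 and -0.06 for NUP98. The other RAE1 probe set gave 0.01 and -0.05. The 2 other NUP98 probe sets ranged from -0.06 to 0.14 with siRNA 1 and from -0.09 to 0.11 with siRNA 2.

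Among the basket genes on the nuclear side, NUP50 was lower with siRNA 2 than with siRNA 1. NUP50, which helps importin alpha to release its cargo, read 615 with siRNA 1 and 458 with siRNA 2, against 795 with the control siRNA (-0.37 and -0.80). All 7 NUP50 probe sets were lower in both libraries. The 6 others ranged from -0.58 to -0.17 with siRNA 1 and from -1.02 to -0.15 with siRNA 2. NUP153 differed by -0.24 and -0.21. TPR, the filament protein of the basket, read 611 and 626, against 588 with the control siRNA (0.06 and 0.09), while its 2 other measured probe sets differed by -0.20 to 0.03 with siRNA 1 and by -0.64 to -0.30 with siRNA 2, so the direction for TPR with siRNA 2 depended on the probe set.

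Of the 3 membrane nucleoporin genes, NDC1 was low in both libraries, as given above. POM121 read 253 with siRNA 1 and 529 with siRNA 2, against 510 with the control siRNA, log2 differences of -1.01 and 0.05, and was the 1 gene at least 2-fold lower with siRNA 1. It had 1 probe set with this symbol alone, and POM121 has close copies in the genome, so the value is uncertain where probes bind their transcripts too. NUP210 had 156 and 115, against 183 with the control siRNA (-0.23 and -0.67). A dimmer NUP210 probe set gave -0.41 and -0.31, so the order of the siRNA libraries depended on the probe set.

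**Figure D3:**
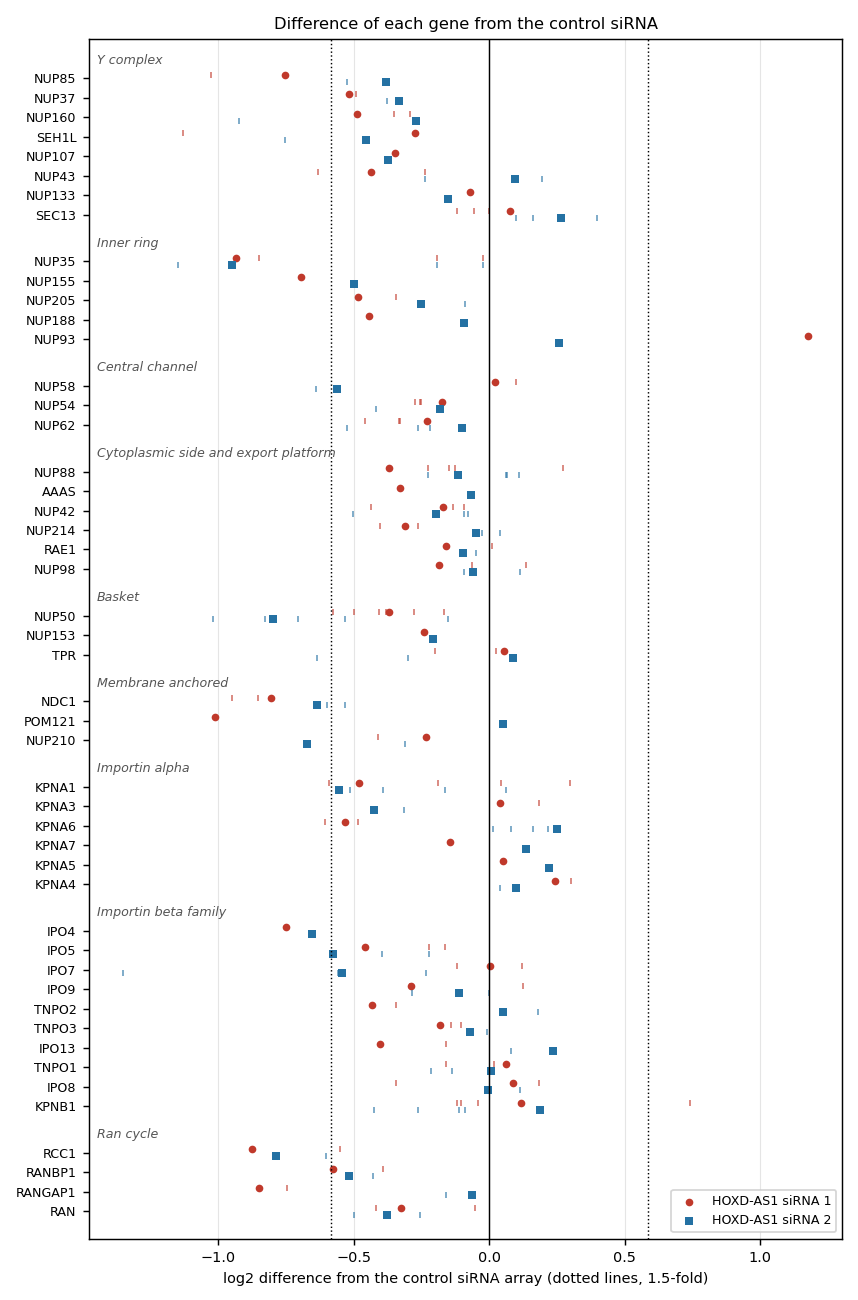
log2 difference of each measured gene from the control siRNA array, by role. Circles (HOXD-AS1 siRNA 1) and squares (siRNA 2) are the probe set used for the gene, vertical ticks its other measured probe sets, and dotted lines mark 1.5-fold. NUP35, NDC1, IPO4 and RCC1 have both symbols left of the lower dotted line, and NUP93 with siRNA 1 is the only symbol right of the upper one.

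Over 16 import receptor genes the median was -0.16 in the siRNA 1 library and 0.00 in the siRNA 2 library, against -0.32 and -0.19 over the 28 measured pore genes. Of the 16, 5 were lower in both libraries, 4 were higher in both and 7 went opposite ways. Among all measured genes 32% were lower in both and 34.3% higher in both. By their brightest probe sets, no receptor gene other than IPO4 passed 1.5-fold in either library.

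Importin alpha proteins recognise the classical nuclear localisation signal, and their genes went different ways. KPNA1 read 237 and 225, against 331 with the control siRNA (-0.48 and -0.55), and its 4 other probe sets ranged from -0.59 to 0.30 with siRNA 1 and from -0.51 to 0.06 with siRNA 2. KPNA3 was level with the control in siRNA 1 (0.04) and lower in siRNA 2 (-0.43). KPNA4 was the highest of the class with siRNA 1, at 768 with siRNA 1 and 695 with siRNA 2, against 649 with the control siRNA (0.24 and 0.10), and a dimmer probe set gave 0.30 and 0.04. KPNA6 read 525 with siRNA 1 and 902 with siRNA 2, against 759 with the control siRNA (-0.53 and 0.25). All 5 KPNA6 probe sets were lower with siRNA 1, and all 5 were above the control with siRNA 2, by 0.01 to 0.25. KPNA5 (36.0 and 40.4, against 34.7) and KPNA7 (28.2 and 34.3, against 31.2) were close to the floor on every array.

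KPNB1 encodes importin beta, the partner that carries importin alpha and its cargo through the channel. It read 3455 and 3631, against 3184 with the control siRNA (0.12 and 0.19). Its 4 other probe sets ranged from -0.12 to 0.74 with siRNA 1 and from -0.42 to -0.09 with siRNA 2. The direction with siRNA 2 thus rested on the brightest probe set. With siRNA 1 it also depended on the probe set, as 3 of the 5 were lower than the control. IPO5, a receptor for histones and ribosomal proteins, differed by -0.46 and -0.58, just inside 1.5-fold, and its 2 other probe sets by -0.22 to -0.16 and -0.39 to -0.22. IPO7, which carries ribosomal proteins, was level with the control in siRNA 1 (924) and lower in siRNA 2 (633), against 922 with the control siRNA. Its 3 other probe sets also lay near the control with siRNA 1 (-0.12 to 0.12) and below it with siRNA 2 (-1.35 to -0.23).

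The remaining receptors differed less or in opposite directions. IPO13, which works in both import and export, read 115 and 178, against 152 with the control siRNA (-0.40 and 0.23). TNPO2 differed by -0.43 and 0.05, IPO9 by -0.29 and -0.11 and TNPO3, the receptor for splicing factors of the SR family, by -0.18 and -0.07. TNPO1, the receptor for hnRNP A1, differed by 0.06 and 0.01, and IPO8 by 0.09 and 0.00. For IPO9, TNPO1 and IPO8 the direction depended on the probe set. With siRNA 1 the 2 other measured probe sets of each ranged from -0.29 to 0.12 for IPO9, -0.16 to 0.02 for TNPO1 and -0.35 to 0.18 for IPO8. With siRNA 2 they ranged from -0.28 to 0.00, from -0.22 to -0.14 and from -0.02 to 0.11.

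All 4 Ran cycle genes were lower in both libraries, where 32% of all measured genes were. So were all 9 of their measured probe sets, against 33.7% of all measured probe sets. Those 9 are repeated readings of the 4 genes. RAN itself read 3661 with siRNA 1 and 3532 with siRNA 2, against 4588 with the control siRNA (-0.33 and -0.38). Its 2 other measured probe sets ranged from -0.42 to -0.05 with siRNA 1 and from -0.50 to -0.26 with siRNA 2. All 3 are of types that can bind more than 1 transcript. RANBP1, a cofactor of the GTPase reaction, read 1530 and 1595, against 2283 with the control siRNA (-0.58 and -0.52), just inside 1.5-fold, and a dimmer probe set gave -0.39 and -0.43. RANGAP1 read 311 with siRNA 1 and 536 with siRNA 2, against 561 with the control siRNA (-0.85 and -0.06). Its other probe set gave -0.75 and -0.16, so both readings placed RANGAP1 low with siRNA 1 alone. RCC1 was low in both libraries, as given above.

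**Figure D4:**
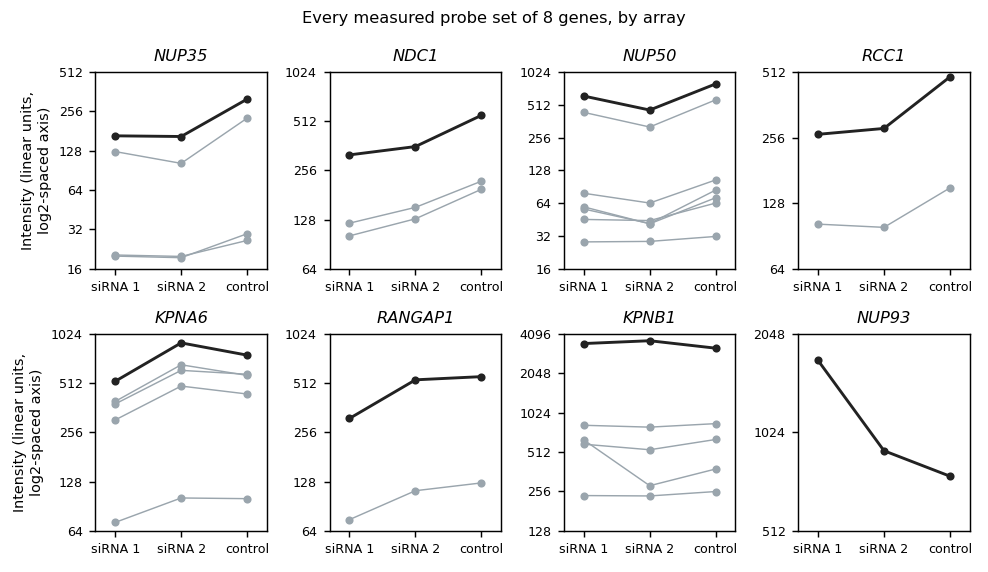
Intensity (linear units on a log2-spaced axis that differs between panels) of every measured probe set of 8 genes on the siRNA 1, siRNA 2 and control siRNA arrays, 1 line per probe set, with the one used for the gene in black. NUP35, NDC1, NUP50 and RCC1 are highest in the control in all their probe sets, KPNA6 and RANGAP1 are lowest with siRNA 1 in all of theirs, and KPNB1 probe sets go different ways.

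Set against each other, without the control array, the siRNA libraries were 1.5-fold or more apart for 5 of the 48 genes. With siRNA 1 minus siRNA 2, POM121 differed by -1.06, RANGAP1 by -0.78, KPNA6 by -0.78 and IPO13 by -0.64, which is 4 genes lower with siRNA 1 (8.33%, against 4.87% of all measured genes). NUP93 was the 1 gene higher with siRNA 1, at 0.92 (2.08% against 6.53%). In all, 30 of the 48 genes were lower with siRNA 1 than with siRNA 2 (62.5%, against 53.1% of all genes).

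Agreement between probe sets of a gene was the sole check on a value that these arrays allow. Of the 48 genes 37 had more than 1 measured probe set, and in 18 of the 37 every measured probe set was lower in both libraries (48.6%, against 18.9% of all 6263 genes with more than 1 measured probe set). Of the 7 genes higher in both libraries, 3 were higher in every measured probe set, namely NUP93, KPNA4 and KPNA5, of which NUP93 and KPNA5 had 1 probe set. The other 4, SEC13, TPR, KPNB1 and TNPO1, had at least 1 probe set that was not higher in both.

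Other genes of nuclear transport and of the envelope were read from a list of 39. It holds export receptors, export factors, lamins and envelope proteins, and also further pore genes such as RANBP2, AHCTF1 and POM121C and further import factors such as NUTF2, SNUPN and HIKESHI. Of the 39, 36 genes were measured, with median log2 differences of -0.07 with siRNA 1 and -0.04 with siRNA 2. Lower in both were 18, and 11 were higher in both, where 32% and 34.3% of all measured genes were. Past 1.5-fold were 2 lower with siRNA 1, 2 lower with siRNA 2 and 1 higher with siRNA 2. The shares of all measured genes past those limits were 6.15%, 4.67% and 4.75%. LMNB1, a B-type lamin gene, had 42.4 and 44.0, against 69.2 with the control siRNA (-0.71 and -0.65). Its other measured probe sets gave -1.04 and -0.57. TMPO, whose products bind lamins, had 167 and 193, against 289 with the control siRNA (-0.79 and -0.58). The 3 other TMPO probe sets ranged from -1.30 to -0.63 with siRNA 1 and from -0.74 to -0.62 with siRNA 2. LBR, the lamin B receptor gene, had 603 and 242, against 748 with the control siRNA (-0.31 and -1.63). A dim LBR probe set stood just above the floor in the control and below it with both siRNAs, so its difference of -0.04 in each library is a lower bound on the size. GLE1, an mRNA export factor, had 409 and 472, against 302 with the control siRNA (0.44 and 0.64), and 2 dimmer GLE1 probe sets lay between 0.18 and 0.25 with siRNA 1 and between -0.16 and 0.30 with siRNA 2. Named here after the values had been looked at, the main export receptor gene XPO1 stood at -0.13 and -0.02, and CSE1L, which returns importin alpha to the cytoplasm, at -0.37 and -0.12. Also named after its values were seen, RANBP2, a large pore protein of the cytoplasmic filaments that binds Ran, had 528 and 446, against 357 with the control siRNA (0.57 and 0.32). Its 3 other probe sets ranged from -0.05 to 0.53 with siRNA 1 and from -0.03 to 0.11 with siRNA 2. RANBP2 has close copies in the RGPD gene family, so these values are uncertain where probes bind their transcripts too.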

How the data were processed

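The authors deposited linear intensities, 1 per probe set and array. GCOS 1.4 is the tool named in the submitters' processing notes, and how background, summary and scaling were handled is not given in the sources used here. Sorted log2 values of any 2 arrays differed by at most 0.098, so a general shift of all transcripts could not show. Values were floored at 26.0, put on the log2 scale and compared with the control, as siRNA minus control, without further scaling (Python 3.11.15, pandas 2.3.3). Symbols came from the platform annotation, with probe sets of several symbols (1831) or none (2569) left unnamed, and all 49 members matched RefSeq by Entrez identifier. A gene was read from its probe set of highest mean log2 intensity. Names ending in _s_ or _x_ mark probe sets that can bind more than 1 transcript.

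With 1 array per group the design allows no test, SD or interval, and precision is limited by the number of arrays. Counts past a fold were set beside the share of all measured genes. The calculation was checked on simulated data. Members with a 1.5-fold difference and the extremes of each role class were named by rule, 21 genes in all, and the other members were named after their values were seen. The members and lists were chosen with earlier results of these data known. The alternatives tried were other floors, scalings and probe set choices.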

Additional observations from a re-analysis of the deposited data

How the results depend on the processing

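No paired analysis was possible because each group holds 1 array. No median and no value past 1.5-fold changed direction under other floors, scalings or choices of probe set. Over 9 alternatives, 2 of them added later, the median of the measured genes stayed between -0.33 and -0.21 with siRNA 1 and between -0.19 and -0.06 with siRNA 2. With only plain probe sets (no _a_, _s_ or _x_ in the name) 14 genes were left. That setting gave 1 gene 1.5-fold lower with siRNA 1 and 1 with siRNA 2, 0 genes 1.5-fold higher with siRNA 1, 6 lower and 3 higher in both libraries, and a siRNA 1 median of -0.21. Lower in both were thus 42.9% of those genes, against 32.1% of all genes in that setting, and the cause of the move from 64.6% was not tested. Averaging all probe sets of a gene, or its measured ones alone (a choice made after seeing the data), gave 3 genes higher in both libraries instead of 7. Both averages moved NUP35 inside 1.5-fold (-0.50 and -0.58), as they take in its dim probe sets, and NUP210 with siRNA 2 (-0.49). The average of measured probe sets put NUP58 past 1.5-fold with siRNA 2 (-0.60), and a floor at the 75th percentile left IPO4 inside it (-0.37 in each library), because its siRNA values then lay at the floor. The other 335 of 344 values of named genes under alternatives kept their side of 1.5-fold. Some of these, inside 1.5-fold, changed sign. Averaged over all probe sets, KPNB1 and TPR became lower than the control with siRNA 2 (-0.14 and -0.17). SEC13 and TPR did so with siRNA 1 (-0.03 and -0.02). Without _s_ and _x_ probe sets, KPNB1 stood at -0.12 with siRNA 1 and -0.26 with siRNA 2. Differences close to the floor, as for KPNA5 and KPNA7, are the least certain.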
